A study of Mus musculus with 2 samples.

Results

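*Mmp8*, *Mmp9*, *Mmp25*, *Retnlg*, *Adam8* and *Ceacam10* are genes of the gelatinase granules and the late stages of the mouse neutrophil, and their transcripts were followed here through bone marrow cells of 1 control (Ctrl) and 1 *Map4k4*-cKO (cKO) library. The genes were taken by symbol, and all 6 were found among the 32285 genes of both count tables. Levels are given as shares of all counted RNA molecules of a stage. All 6 were low in cells like stem cells or early progenitors and in promyelocyte-like cells. In the cycling neutrophil precursors that follow, *Mmp8* was no higher than in summed erythroid, B-lineage and T/NK cells, and Ctrl *Retnlg* was little higher. All 6 had higher levels in immature neutrophils, and higher again in the cells between immature and mature neutrophils. There *Mmp8*, *Mmp9*, *Mmp25* and *Ceacam10* had their highest level, while *Retnlg* and *Adam8* were highest in mature neutrophils. In UMIs (counted RNA molecules) per cell, *Adam8* was instead highest in the cells between. Between the libraries, *Ceacam10* was 1.69 to 2.10 times as high in cKO in the 3 late stages. *Mmp8* was lower in cKO in immature and higher in mature neutrophils, in counts scaled to the total of each stage. In UMIs per cell *Mmp8* was higher in the more deeply read cKO cells in both of these stages.

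The study asked how loss of the kinase MAP4K4 in blood-forming cells bears on neutrophil maturation. Mice on a C57BL/6 background, 13 to 14 weeks old, carried Mx1-Cre, which poly I:C switches on in blood-forming cells and also in other interferon-responsive cells. The cKO mice had both *Map4k4* alleles floxed and received 5 injections of poly I:C to delete them, and the Ctrl mice were littermates with Mx1-Cre that the methods write as *Map4k4* -/-. The methods name the injections for the cKO mice, and whether Ctrl mice received poly I:C was not stated in the sources used here. For each genotype, c-Kit-positive marrow cells and whole marrow after red cell lysis were mixed at 2 to 3 and sequenced as 1 droplet-based 3′ library, and the number of mice in a library was not stated in the sources used here. With 1 library per genotype there is no replicate of either genotype, so no test between them was possible. Every difference below describes these 2 libraries, and all intervals are 95% intervals that cover counting error only.

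Neutrophils make their granules in sequence during maturation. Primary granules with myeloperoxidase and elastase form in promyelocytes, secondary granules with lactoferrin form in myelocytes and metamyelocytes, and gelatinase granules, also called tertiary granules, and secretory vesicles form last. A granule protein is sorted largely by when its gene is transcribed, and the late granules are released most readily when the cell moves through vessel walls and tissue. The 6 genes cover several roles of this late phase. *Mmp8* encodes neutrophil collagenase, which cleaves fibrillar collagen, *Mmp9* encodes gelatinase B, the enzyme that gave the granule its name, and *Mmp25* encodes a matrix metalloproteinase anchored in the membrane. *Adam8* encodes a membrane-bound metalloproteinase with a disintegrin domain, *Retnlg* a small secreted protein of the resistin family, and *Ceacam10* a mouse protein of the carcinoembryonic antigen family.

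In GRCm38, the build of the files, GENCODE vM21 places *Mmp8* (ENSMUSG00000005800) on chromosome 9 from 7558456 to 7568485 on the plus strand and *Mmp9* (ENSMUSG00000017737) on chromosome 2 from 164940780 to 164955850 on the plus strand. *Mmp25* (ENSMUSG00000023903) lies on chromosome 17 from 23628311 to 23645277 on the minus strand, with 2 other annotated genes inside its span. *Retnlg* (ENSMUSG00000022651) lies on chromosome 16 from 48872621 to 48874496 on the plus strand. *Adam8* (ENSMUSG00000025473) lies on chromosome 7 from 139978932 to 139992562 on the minus strand and overlaps *Gm16201* and *Mir7062*. *Ceacam10* (ENSMUSG00000054169) lies on chromosome 7 from 24777206 to 24784657 on the plus strand. All 6 are protein-coding and all 6 identifiers of the files matched the annotation.

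RefSeq promoter windows of 300 bases, with 250 bases before the RefSeq start, were found for 5 of the 6 genes. In the windows shown, this start lies upstream of the GENCODE start given above for *Mmp8*, *Retnlg* and *Ceacam10*. They are shown for the 4 genes on which the results turn most, in GRCm38.p6, 5′ to 3′ on the strand of the gene: *Mmp8* at chr9:7558179-7558478 (plus), *Retnlg* at chr16:48872358-48872657 (plus), *Adam8* at chr7:139992513-139992812 (minus) and *Ceacam10* at chr7:24776917-24777216 (plus). Capitals mark matches on either strand to motifs of factors known in myeloid cells: C/EBP (TTGCNNAA), PU.1 (AGGAAGT), AP-1 (TGANTCA), RUNX (TGTGGT) and the TATA box (TATAAA).
Mmp8: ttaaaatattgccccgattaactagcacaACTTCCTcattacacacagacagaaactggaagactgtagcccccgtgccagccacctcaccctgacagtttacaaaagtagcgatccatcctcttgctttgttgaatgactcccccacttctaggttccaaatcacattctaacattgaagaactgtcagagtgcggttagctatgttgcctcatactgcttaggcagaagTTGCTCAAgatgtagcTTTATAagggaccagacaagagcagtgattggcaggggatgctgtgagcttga
Retnlg: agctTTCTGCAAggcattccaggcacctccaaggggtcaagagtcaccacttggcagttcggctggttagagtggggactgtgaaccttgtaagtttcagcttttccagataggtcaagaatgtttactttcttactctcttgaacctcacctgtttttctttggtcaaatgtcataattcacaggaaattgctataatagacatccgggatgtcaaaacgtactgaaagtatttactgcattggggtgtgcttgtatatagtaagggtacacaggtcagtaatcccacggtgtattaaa
Adam8: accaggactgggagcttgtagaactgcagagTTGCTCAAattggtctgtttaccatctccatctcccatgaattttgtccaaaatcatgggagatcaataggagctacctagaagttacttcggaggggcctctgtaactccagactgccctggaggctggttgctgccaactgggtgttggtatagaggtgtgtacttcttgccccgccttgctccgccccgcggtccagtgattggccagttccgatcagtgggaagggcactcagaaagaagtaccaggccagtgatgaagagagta
Ceacam10: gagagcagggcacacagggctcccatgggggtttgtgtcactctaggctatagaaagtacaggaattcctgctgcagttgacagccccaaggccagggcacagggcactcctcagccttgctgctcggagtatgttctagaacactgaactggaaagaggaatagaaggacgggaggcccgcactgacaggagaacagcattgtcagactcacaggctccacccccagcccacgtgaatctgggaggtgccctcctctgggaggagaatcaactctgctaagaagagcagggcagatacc

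The *Mmp8* window held a C/EBP match that begins 19 bases before the RefSeq start and a PU.1 match that begins 221 bases before it. A reverse-strand TATA match lay across this start and wholly upstream of the GENCODE start. *Retnlg* and *Adam8* held 1 C/EBP match each, which begin 246 and 219 bases before their RefSeq starts. The windows of *Ceacam10* and *Mmp25* held none of the 5 motifs, which says only that these letters are not in these windows. Of all 32851 promoter windows of the same length, 10.8% held the C/EBP letters, 9.35% the PU.1 letters and 13.6% the TATA letters, while AP-1 and RUNX letters were in 7.81% and 16.8%. No match overlapped another, and a match is a description of the sequence, not a measured site.

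The deposited Ctrl table has 10220 barcodes with 71527701 unique molecular identifiers (UMIs, tags that count captured RNA molecules). In cKO there are 6872 barcodes and 64393950 UMIs. *Map4k4* itself stood at 72.6 CPM (UMIs of a gene in each 1000000 UMIs of the summed cells; 70.7 to 74.6) in Ctrl and 64.3 CPM (62.4 to 66.3) in cKO. The log2 ratio of -0.17 (-0.23 to -0.12) separates the libraries little, and counts per gene do not show which exons were read, so directions between the libraries rest on their labels. The libraries shared 3010 barcode labels. Among kept cells with a shared label and a stage in both libraries, 13.4% had the same stage, against 12.5% for any pair of cells. Cells were placed in stages by fixed sums of marker genes that hold none of the 6 genes, given per 10000 UMIs, in cells with at least 1000 UMIs. The stages are named "like" because they rest on these sums: HSC/MPP-like, ProNeu-like (primary granule genes), PreNeu-like (secondary granule genes with cell cycle genes), imNeu-like (secondary granule genes without cell cycle genes), imNeu-to-mNeu-like (secondary granule and late genes together) and mNeu-like (late genes). In Ctrl, 7291 cells met exactly 1 stage or other cell type, and 4429 did in cKO. The mNeu-like cells numbered 1188 in Ctrl with a median of 2266 UMIs and 987 in cKO with a median of 5845 UMIs, so the cKO cells were read more deeply. Among the 10 leading genes by fold over all other cells, mNeu-like cells had 5 of their own markers in Ctrl and 3 in cKO, and imNeu-like cells had 3 in each. The imNeu-to-mNeu-like cells had none of their own markers there, so that name marks a position between the other stages and not a cell type of its own. In HSC/MPP-like cells the leading gene was *Pf4* in both libraries, and *Itga2b* was also among the 10. Both are megakaryocyte markers, so that stage may also hold cells of the megakaryocyte line, which was not tested. Of the imNeu-to-mNeu-like and mNeu-like cells, 139 of 1887 in Ctrl and 152 of 1823 in cKO lay close to the border between them. More lay close to the border between imNeu-like and imNeu-to-mNeu-like cells, 351 of 1804 in Ctrl and 342 of 1497 in cKO.

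*Mmp8* (neutrophil collagenase) had the widest range of the 3 matrix metalloproteinases. It stood at 42.9 CPM in Ctrl and 33.3 CPM in cKO in PreNeu-like cells, at 732.1 and 493.7 CPM in imNeu-like cells, at 3397 and 3200.0 CPM in imNeu-to-mNeu-like cells, and at 2334 and 2991 CPM in mNeu-like cells. From PreNeu-like to imNeu-like cells, the level was 17.0 times as high in Ctrl and 14.8 times as high in cKO. A stricter gate, with marker limits moved apart, gave *Mmp8* lower levels in imNeu-like cells, 317.9 CPM in Ctrl and 145.5 CPM in cKO, and steps of 12.7 and 6.13 times. From imNeu-to-mNeu-like to mNeu-like cells it was lower in both libraries, by a log2 ratio of -0.54 (-0.59 to -0.50) in Ctrl and -0.10 (-0.13 to -0.07) in cKO. The levels of PreNeu-like cells were no higher than those of the summed erythroid, B-lineage and T/NK cells of the same library, 48.9 CPM (44.8 to 53.4) in Ctrl and 36.8 CPM (30.4 to 44.1) in cKO. Those cells are not known to make neutrophil collagenase, and their level is used here as that of free RNA in the droplets. It comes from 1219 cells in Ctrl and 151 in cKO. The name is kept for the other genes below, and whether these cells make any of them was not tested. Among Ctrl cells thinned to 1000 UMIs, the highest B-lineage cell held 33 *Retnlg* UMIs and the highest erythroid cell 20. The upper quartiles of these cell types were 1 and 0. No doublet caller was run, and the part of doublets or misplaced cells in this level was not tested.

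*Mmp9* (gelatinase B) had 138.2 CPM (131.9 to 144.9) in Ctrl PreNeu-like cells, where this free RNA was 88.8 CPM (83.1 to 94.7). Within it, Ctrl B-lineage cells had 132.5 CPM (117.7 to 148.8) and T/NK cells 146.7 CPM (112.5 to 188.1) of *Mmp9*, which overlap the PreNeu-like interval. These 2 cell types were shallower, and per cell they held 0.482 and 0.504 *Mmp9* UMIs. Ctrl erythroid cells held 1.13 per cell and PreNeu-like cells 1.57. In cKO, PreNeu-like cells had 134.4 CPM (128.4 to 140.6) and the free RNA was 66.7 CPM (58.0 to 76.3). The level was 1155 CPM in Ctrl and 1172 CPM in cKO in imNeu-like cells and 3799 and 3484 CPM in imNeu-to-mNeu-like cells. In mNeu-like cells it was 3730.0 CPM (3661 to 3800.0) in Ctrl, within the counting interval of the stage before, and 3248 CPM (3202 to 3294) in cKO. The log2 ratio between these last stages was -0.03 (-0.06 to 0.01) for *Mmp9* in Ctrl and -0.10 (-0.13 to -0.07) in cKO.

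*Mmp25*, the membrane-anchored enzyme, was the earliest of the 6 by its own scale. In PreNeu-like cells it had 84.7 CPM (79.7 to 89.9) in Ctrl and 75.6 CPM (71.1 to 80.3) in cKO, which is 24.0% and 22.4% of its highest stage. Free RNA gave 9.69 CPM (7.88 to 11.8) in Ctrl and 7.24 CPM (4.59 to 10.9) in cKO. The other 5 genes had at most 10.5% of their highest stage in PreNeu-like cells. *Mmp25* was 166.4 and 173.1 CPM in imNeu-like cells, 352.5 and 338.0 CPM in imNeu-to-mNeu-like cells, and 285.6 and 268.3 CPM in mNeu-like cells of Ctrl and cKO. In UMIs per cell, PreNeu-like cells held 0.962 and imNeu-like cells 0.934 in Ctrl, with median depths of 10608 and 4946 UMIs. In cKO these cells held 1.335 and 2.109.

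*Adam8*, the disintegrin metalloproteinase, was one of the 2 genes that were highest by CPM in mNeu-like cells in both libraries. It had 14.4 CPM (12.4 to 16.7) in Ctrl and 13.0 CPM (11.2 to 15.1) in cKO in PreNeu-like cells, where free RNA gave 9.79 and 5.98 CPM and Ctrl B-lineage cells alone 16.1 CPM (11.2 to 22.4). In UMIs per cell, the shallower Ctrl B-lineage cells held 0.0586, erythroid cells 0.106 and PreNeu-like cells 0.164. *Adam8* stood at 104.0 and 99.8 CPM in imNeu-like cells, 311.7 and 253.1 CPM in imNeu-to-mNeu-like cells, and 462.0 CPM (438.0 to 486.9) and 358.8 CPM (343.8 to 374.3) in mNeu-like cells. The last step was a log2 ratio of 0.57 (0.45 to 0.69) in Ctrl and 0.50 (0.41 to 0.59) in cKO. In UMIs per cell *Adam8* was lower at this step, from 1.268 to 1.171 in Ctrl and from 2.37 to 2.184 in cKO. Median depth fell at the same step from 3615 to 2266 UMIs in Ctrl and from 9303.5 to 5845 UMIs in cKO.

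*Retnlg*, the resistin-like gene, took 34221 CPM of mNeu-like cells in Ctrl and 40677 CPM in cKO. It had 1175 CPM in Ctrl and 1767 CPM in cKO in imNeu-like cells, and 16651 and 18962 CPM in imNeu-to-mNeu-like cells. The step from imNeu-like to imNeu-to-mNeu-like cells was 14.2-fold in Ctrl and 10.7-fold in cKO, more than for any of the other 5 genes. In PreNeu-like cells it had 398.7 CPM (387.8 to 409.8) in Ctrl and 413.8 CPM (403.2 to 424.6) in cKO, where the free RNA was 365.3 CPM (353.7 to 377.1) and 306.4 CPM (287.5 to 326.3). B-lineage cells alone had 667.8 CPM (633.9 to 703.1) in Ctrl and 489.4 CPM (358.3 to 652.8) in cKO, above the PreNeu-like value in Ctrl. Ctrl B-lineage cells had a median of 2553 UMIs, against 10608 in PreNeu-like cells and 10624 in erythroid cells. In UMIs of *Retnlg* per cell, Ctrl B-lineage cells held 2.43, PreNeu-like cells 4.53 and erythroid cells 4.35. In cKO these were 2.71, 7.31 and 7.88.

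*Ceacam10* had 18.3 CPM (16.02 to 20.8) in Ctrl and 40.5 CPM (37.2 to 44.0) in cKO in PreNeu-like cells, above a free RNA level of 4.46 CPM (3.26 to 5.95) and 2.83 CPM (1.29 to 5.38). It stood at 85.2 and 178.7 CPM in imNeu-like cells, 192.8 and 384.9 CPM in imNeu-to-mNeu-like cells, and 171.0 and 288.6 CPM in mNeu-like cells. The cKO value was above the Ctrl value in each of these 4 stages with no overlap of the counting intervals. In HSC/MPP-like and ProNeu-like cells it had 10 to 27 UMIs per library, and the intervals of the libraries overlapped.

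**Figure D1:**
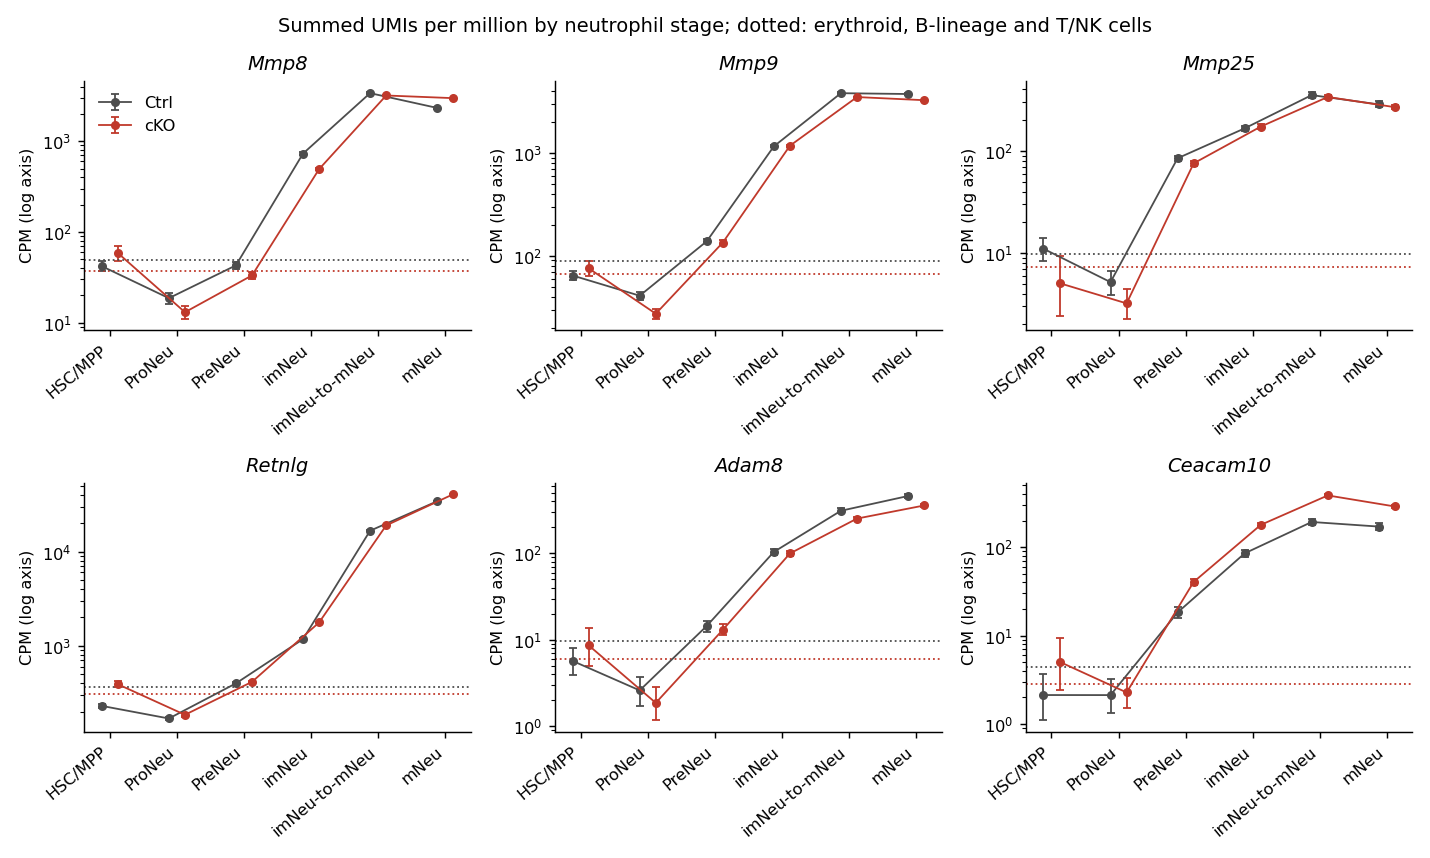
Level in CPM (log axis) of the 6 genes in 6 neutrophil stages of the Ctrl (grey) and cKO (red) libraries, with 95% counting intervals; dotted lines give the level in erythroid, B-lineage and T/NK cells. All 6 genes lie near or below the dotted lines in HSC/MPP and ProNeu and well above them from imNeu on, and the red *Ceacam10* points lie above the grey ones from PreNeu on.

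A gene was counted as called when its level differed by at least 1.5-fold between 2 stages or libraries, among genes with at least 50 CPM in at least 1 of them. From PreNeu-like to imNeu-like cells, all 6 genes were called higher in both libraries, where 12.8% of all such genes were called higher in Ctrl and 15.6% in cKO, and 26.7% and 34.8% lower. *Mmp8*, *Adam8* and *Ceacam10* were below 50 CPM in PreNeu-like cells of both libraries. They passed the floor through imNeu-like cells alone and could not have been called lower, so their calls add no support. From imNeu-like to imNeu-to-mNeu-like cells, all 6 were again called higher in both libraries, against 24.8% of genes called higher in Ctrl and 20.3% in cKO, and 8.33% and 11.3% called lower. The median log2 ratio of the 6 genes at this step was 1.65 in Ctrl and 1.46 in cKO, and that of all genes was 0.23 and 0.18. From imNeu-to-mNeu-like to mNeu-like cells, *Retnlg* alone of the 6 was called, at 2.06-fold in Ctrl and 2.15-fold in cKO, against 23.3% and 27.6% of genes called higher and 9.36% and 9.27% called lower. With gates from the signature lists of the study this step of *Retnlg* was 1.01-fold in Ctrl and 1.12-fold in cKO, so its call there was lost. From imNeu-like directly to mNeu-like cells all 6 were called higher in both libraries, where 43.0% of genes were in Ctrl and 44.9% in cKO, and 16.7% and 18.3% were called lower. These calls rest on shares of UMIs. In UMIs per cell, *Mmp25* went from 0.934 to 0.724 in Ctrl and from 2.109 to 1.633 in cKO. *Ceacam10* went from 0.478 to 0.434 in Ctrl and from 2.177 to 1.757 in cKO. *Mmp8*, *Mmp9*, *Retnlg* and *Adam8* were higher per cell in both libraries. At the last step the median of the 6 genes was -0.10 in both libraries, while the median of all genes was 0.18 in Ctrl and 0.26 in cKO. The imNeu-to-mNeu-like cells thus held the top level of 4 genes, and 5 of the 6 were among their 10 leading genes in Ctrl and 3 in cKO. No stage was defined with the 6 genes. However, late markers set these cells apart from imNeu-like cells, and the markers derive in part from tables made from these libraries. A rise of late genes at that border is therefore not an independent result.

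For *Mmp8*, the shares of single cells with a UMI had the same order of the 3 late stages as its CPM. They come from the same UMIs and stages. When every cell was thinned to 1000 UMIs, so that depth was equal, 34.8% (31.9 to 37.6) of imNeu-like cells in Ctrl held at least 1 *Mmp8* UMI, 90.3% (87.8 to 92.4) of imNeu-to-mNeu-like cells and 72.3% (69.7 to 74.8) of mNeu-like cells. In cKO the shares were 27.5% (24.2 to 31.1), 90.4% (88.2 to 92.3) and 86.3% (84.0 to 88.4). Without thinning, the mNeu-like shares were 84.7% in Ctrl and 97.7% in cKO. In erythroid cells thinned the same way, 5.21% in Ctrl and 17.7% in cKO held an *Mmp8* UMI, from 499 and 113 cells with median depths of 10624 and 19086 UMIs, and the PreNeu-like shares of 3.65% and 3.02% were no higher. *Retnlg* was in 98.2% and 100% of thinned mNeu-like cells and *Mmp9* in 95.9% and 93.7%, with 99.2% to 100% before thinning. The less abundant genes were in fewer cells at this depth: *Adam8* in 36.7% (34.0 to 39.5) of mNeu-like cells in Ctrl and 30.3% (27.4 to 33.3) in cKO, *Mmp25* in 20.7% (18.4 to 23.1) and 21.6% (19.1 to 24.3), and *Ceacam10* in 13.6% (11.7 to 15.6) and 22.8% (20.2 to 25.5). Before thinning these shares were 64.7% and 81.5% for *Adam8*, 42.9% and 65.9% for *Mmp25*, and 28.7% and 64.1% for *Ceacam10*.

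**Figure D2:**
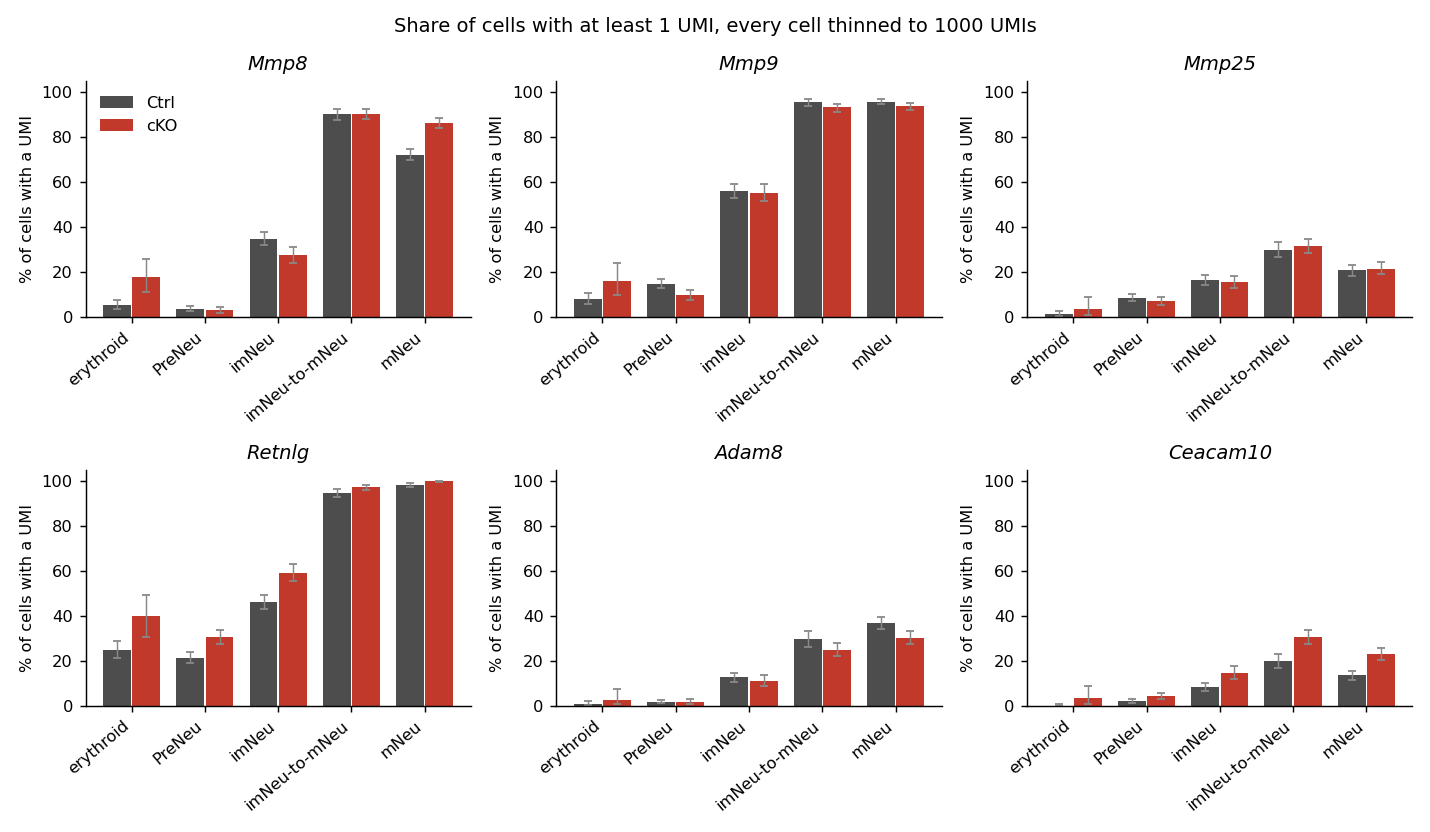
Percent of cells with at least 1 UMI of each gene after every cell was thinned to 1000 UMIs, in erythroid cells as background and in 4 neutrophil stages, for Ctrl (grey) and cKO (red), with exact 95% binomial intervals. *Mmp8* bars reach 90.3% and 90.4% in imNeu-to-mNeu cells and part to 72.3% and 86.3% in mNeu cells, and the *Ceacam10* bars of cKO are the taller ones in the 3 late stages.

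Of the 1188 thinned mNeu-like cells in Ctrl, 10 held a UMI of all 6 genes and 469 held exactly 3. Of the 987 in cKO, 18 held all 6 and 386 held exactly 3. Within mNeu-like cells, thinned counts of *Mmp8* and *Retnlg* had a Spearman correlation over cells of 0.49 in Ctrl and 0.33 in cKO. The other pairs lay between 0.01 and 0.22 in Ctrl and between -0.02 and 0.18 in cKO, with few UMIs per cell behind them. These correlations are over cells of 1 library each, which share depth and free RNA.

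To follow the genes more finely, the imNeu-like, imNeu-to-mNeu-like and mNeu-like cells were ordered by an axis, the log2 ratio of the late marker sum to the secondary granule marker sum, and divided into 10 bins of equal size over both libraries. None of the 6 genes is in either sum. By CPM, *Mmp25* reached at least 50% of its highest bin in bin 3, and *Mmp8*, *Mmp9* and *Ceacam10* in bin 4. *Adam8* reached it in bin 5 and *Retnlg* in bin 6, and each of these bins was the same in both libraries. Some of these were near misses in the bin before. There the counting interval held 50% of the highest bin for *Mmp9* in Ctrl and for *Ceacam10* and *Adam8* in both libraries. The order of these genes at this line is therefore not settled to the bin. The highest bin was bin 6 or 7 for *Mmp8*, *Mmp9*, *Mmp25* and *Ceacam10* and bin 7 or 8 for *Retnlg* and *Adam8*. From there to bin 10, the latest cells, *Mmp8* was at 24.5% of its highest bin in Ctrl and 44.3% in cKO, *Ceacam10* at 34.6% and 34.3%, *Mmp25* at 36.7% and 31.7%, and *Retnlg* at 46.8% and 62.3%. *Mmp9* kept 71.4% and 63.2%, and *Adam8* 89.2% and 77.2%. By CPM, the late granule genes therefore differed in how far along the axis their levels stayed high. In bin 10 the lowest share of the own highest bin was that of *Mmp8* in Ctrl and of *Mmp25* in cKO. The highest share was that of *Adam8* in both libraries. Median depth fell from 6324 UMIs in bin 1 to 1983.5 in bin 10 in Ctrl, and from 13687 to 5145.5 in cKO. Ctrl *Mmp25* had 317 UMIs in 399 cells of bin 1 and 423 in 288 cells of bin 5. Per cell it thus passed 50% earlier than by CPM. Ctrl *Adam8* had 416 UMIs in 271 cells of bin 7 and 283 in 300 cells of bin 10, so per cell it kept less than by CPM. Both held in cKO as well.

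**Figure D3:**
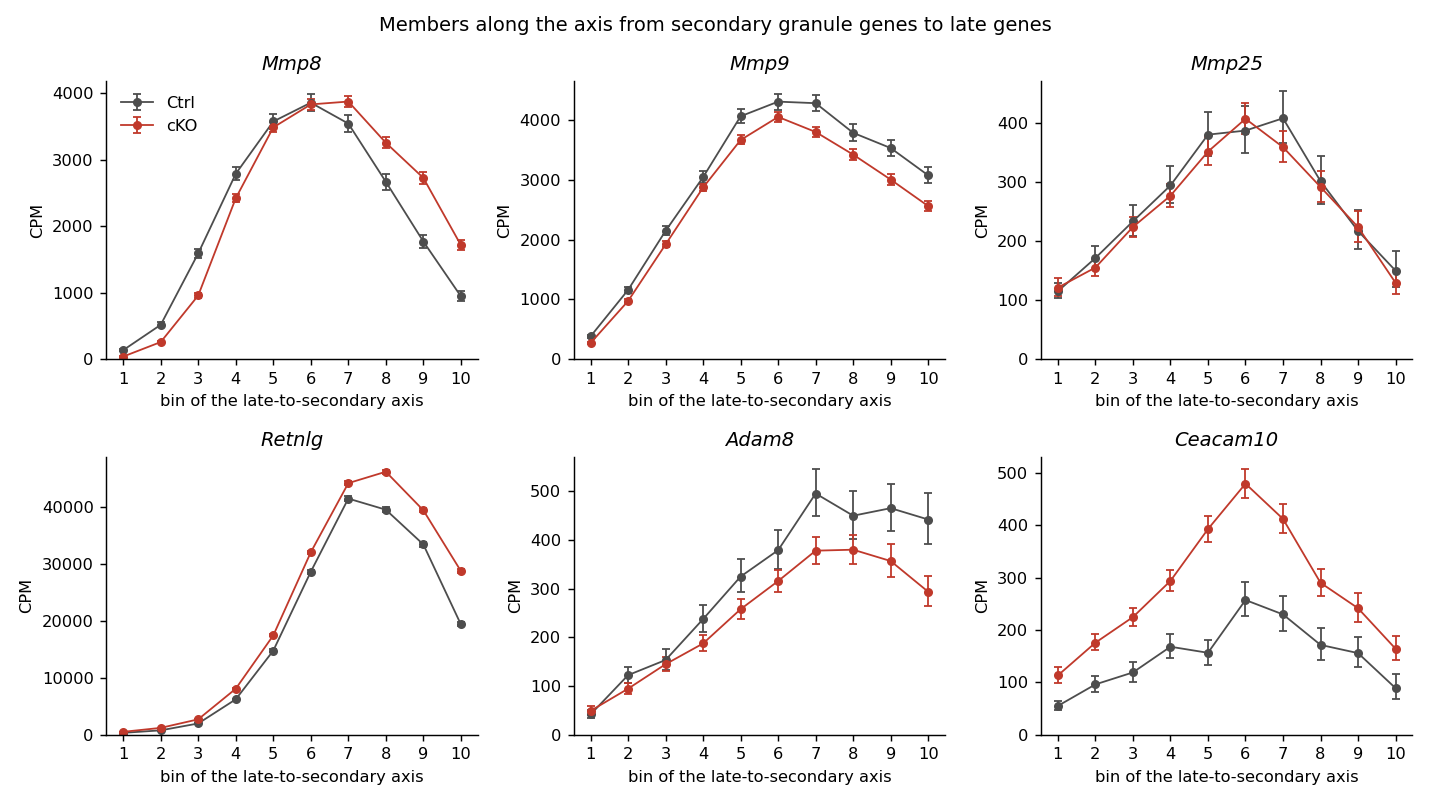
CPM of the 6 genes in 10 bins of the axis from secondary granule genes (bin 1) to late genes (bin 10), in Ctrl (grey) and cKO (red) with 95% counting intervals. *Mmp25* is at 50% of its highest bin by bin 3 and *Retnlg* by bin 6, the *Ceacam10* curve of cKO lies above that of Ctrl in all 10 bins, and the *Mmp8* curves cross near bin 6.

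Between the libraries, *Ceacam10* had the largest ratio of the 6 genes in each late stage. In imNeu-like cells *Ceacam10* (2.10-fold) and *Retnlg* (1.5-fold) were called higher in cKO, and 1.07% of all genes were. In imNeu-to-mNeu-like cells *Ceacam10* (2.00-fold) was called, against 1.71% of genes, and in mNeu-like cells *Ceacam10* (1.69-fold), against 3.24% of genes. None of the 6 was called lower in these 3 stages, where 12.7%, 23.3% and 21.5% of genes were. In HSC/MPP-like cells *Retnlg* was called higher, at 229.8 CPM in Ctrl and 390.0 CPM in cKO, against 3.06% of genes called higher and 8.86% lower, where the free RNA was 365.3 and 306.4 CPM. In ProNeu-like cells only *Retnlg* reached 50 CPM and could be called, and it was not, where 0.911% of genes were higher and 13.3% lower. In PreNeu-like cells only *Mmp9*, *Mmp25* and *Retnlg* could be called, and none was, where 0.715% were higher and 12.3% lower. Below that floor, *Ceacam10* was 2.21 times as high in cKO in PreNeu-like cells. *Mmp25* was at 0.619 times the Ctrl level in ProNeu-like cells, from 56 UMIs in Ctrl and 38 in cKO, below the free RNA level in both. In HSC/MPP-like cells, *Mmp25* was at 0.46, *Adam8* at 1.51 and *Ceacam10* at 2.38 times the Ctrl level. These ratios rest on 10 to 62 UMIs per gene and library. The median of all genes lay below 0 in every late stage, at -0.23, -0.35 and -0.31, and median-of-ratios scaling, which centres on the genes, moves every log2 ratio up by 0.16, 0.25 and 0.25.

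*Ceacam10* had a log2 ratio of 1.07 (0.92 to 1.22) in imNeu-like, 1.0 (0.87 to 1.13) in imNeu-to-mNeu-like and 0.75 (0.61 to 0.90) in mNeu-like cells. Along the axis it was above 0 in 10 of 10 bins, from 0.63 to 1.33. It stayed above 0 in 10 of 10 bins when all cells were thinned to 1000 UMIs before they were placed, from 0.30 to 1.42, and when the UMIs found per erythroid, B-lineage and T/NK cell were subtracted, from 0.72 to 1.40. In UMIs per cell, mNeu-like cells held 0.434 in Ctrl and 1.76 in cKO. The *Ceacam10* ratio was thus above 0 in every bin, also at equal depth. No intervals were computed for the thinned bins, which hold few UMIs of it. The lowest ratio came from bin 3, with 132.9 CPM in 316 Ctrl cells and 163.9 CPM in 238 cKO cells.

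The log2 ratio of *Retnlg* was 0.59 (0.55 to 0.63) in imNeu-like, 0.19 (0.17 to 0.20) in imNeu-to-mNeu-like and 0.25 (0.24 to 0.26) in mNeu-like cells, and in 10 of 10 bins of the axis, from 0.09 to 0.64. With gates built from the signature lists of the study, *Retnlg* stood at 0.08 in the immature stage and at -0.03 in the stage after it. With the level of B-lineage and T/NK cells subtracted, the immature stage was at 1.30. In the first bin *Retnlg* had 341.4 CPM in Ctrl and 521.9 CPM in cKO, where the free RNA was 365.3 and 306.4 CPM.

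*Mmp8* differed in opposite directions along maturation. It was lower in cKO in imNeu-like cells, with a log2 ratio of -0.57 (-0.63 to -0.51), and higher in mNeu-like cells at 0.36 (0.32 to 0.40), which median-of-ratios scaling moved to -0.40 and 0.61. In imNeu-to-mNeu-like cells it was -0.09 (-0.12 to -0.05), and the same scaling turned it to 0.17. In UMIs per cell, imNeu-like cells held 4.108 of *Mmp8* in Ctrl and 6.015 in cKO, with median depths of 4946 and 11747 UMIs. By bin, the ratio went from -1.82 (-2.19 to -1.47) in bin 1, where 134.4 CPM in Ctrl stood against 38.0 CPM in cKO, over -0.01 (-0.07 to 0.05) in bin 6 to 0.86 (0.73 to 0.99) in bin 10, where 945.4 CPM in Ctrl stood against 1716 CPM in cKO. Thinning all cells to 1000 UMIs before placing them moved the early side much more than the late side. Bin 1 was then at -0.28 and bin 10 at 0.79. The thinned bins did not hold the same cells: bin 1 of cKO had 149 whole cells at 38.0 CPM and 213 thinned ones at 225.4 CPM. Depth and the placing of cells cannot be told apart here. Subtraction of free RNA left no *Mmp8* in bin 1 of cKO and gave -1.17 in bin 2 and 1.06 in bin 10. With gates from the signature lists, the ratio was -1.21 in the immature stage and 0.03 in the mature one. The median position on the axis was 0.25 in Ctrl and 0.10 in cKO for mNeu-like cells and -6.35 and -6.16 for imNeu-like cells, and the part of this and of depth in the result was not tested beyond these values.

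*Mmp9*, *Adam8* and *Mmp25* were nearer to equal or lower in cKO. The log2 ratio of *Mmp9* was 0.02 (-0.02 to 0.07), -0.12 (-0.16 to -0.09) and -0.20 (-0.23 to -0.17) in the 3 late stages, and below 0 in 10 of 10 bins, from -0.50 to -0.08. At equal depth it was below 0 in 7 of 10 bins. *Adam8* had -0.06 (-0.21 to 0.09), -0.30 (-0.42 to -0.18) and -0.36 (-0.46 to -0.27), with counting intervals below 0 in 8 of 10 bins. *Mmp25* had 0.06 (-0.06 to 0.17), -0.06 (-0.17 to 0.05) and -0.09 (-0.21 to 0.03), and its interval held 0 in every bin. Median-of-ratios scaling turned *Mmp9* to 0.13 and 0.05 and *Mmp25* to 0.19 and 0.16 in the last 2 of these stages, and *Adam8* to 0.10 in imNeu-like cells, while it left *Adam8* at -0.05 and -0.11 in the later ones. The directions of *Mmp9* and *Mmp25* between the libraries therefore depend on the scaling.

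**Figure D4:**
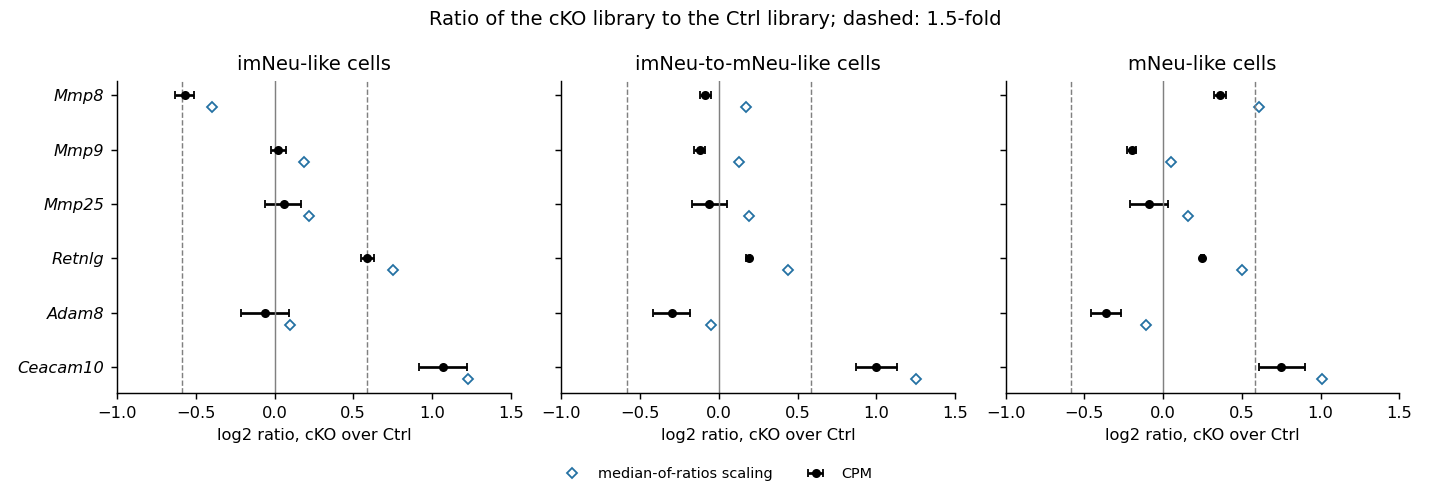
Log2 ratio of the cKO to the Ctrl library for the 6 genes in 3 late stages, as CPM (black, with 95% counting intervals) and after median-of-ratios scaling (open blue diamonds); dashed lines mark 1.5-fold. *Ceacam10* lies beyond the right dashed line in all 3 stages, and *Mmp8* is at -0.57 in imNeu, -0.09 in imNeu-to-mNeu (0.17 when scaled) and 0.36 in mNeu cells.

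**Figure D5:**
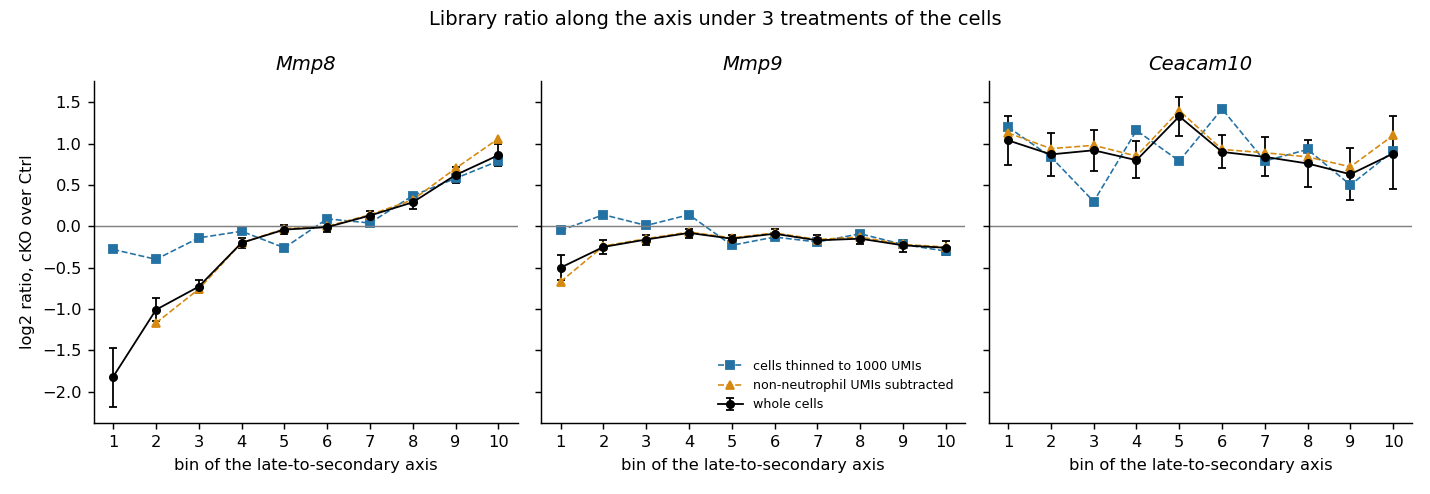
Log2 ratio of the cKO to the Ctrl library in 10 bins of the axis for *Mmp8*, *Mmp9* and *Ceacam10*, from whole cells (black, 95% counting intervals), from cells thinned to 1000 UMIs (blue squares) and after subtraction of the UMIs found per non-neutrophil cell (orange triangles). In bin 1 of *Mmp8* whole cells give -1.82 and thinned cells -0.28, whereas in bin 10 they give 0.86 and 0.79.

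Outside the neutrophil stages, *Mmp8* was also above free RNA in ProMon-like cells, the monocyte progenitors. There it had 138.8 CPM (128.7 to 149.5) in 648 Ctrl cells and 216.5 CPM (202.3 to 231.5) in 304 cKO cells, a log2 ratio over erythroid, B-lineage and T/NK cells of 1.5 (1.34 to 1.67) and 2.56 (2.28 to 2.85). The neutrophil genes *Ltf* and *Camp* were not higher in ProMon-like cells than in that background, at log2 ratios of -0.21 and 0.00 in Ctrl and -0.26 and -0.41 in cKO. *Cxcr2* was at 0.04 (-0.30 to 0.38) and -0.06 (-0.56 to 0.44), and *S100a8* at -0.04 (-0.06 to -0.02) in Ctrl and 0.38 (0.35 to 0.41) in cKO. *Csf3r* was above the background in both, at 1.46 (1.28 to 1.64) and 2.27 (1.90 to 2.66). *Mmp9* had 74.0 CPM in Ctrl and 68.1 CPM in cKO there, against 88.8 and 66.7 CPM in the background. *Retnlg* was at a log2 ratio of -0.15 (-0.23 to -0.07) over the background in Ctrl and 0.77 (0.66 to 0.89) in cKO. *Adam8* and *Ceacam10* were at 0.98 (0.19 to 1.83) and 1.26 (0.13 to 2.53) in cKO ProMon-like cells, and their Ctrl intervals held 0. For every 100 *Retnlg* UMIs, ProMon-like cells held 42.2 *Mmp8* UMIs in Ctrl and 41.3 in cKO, the background 13.4 and 12.0, and mNeu-like cells 6.82 and 7.35. At equal depth 12.8% (10.3 to 15.6) of ProMon-like cells in Ctrl and 21.1% (16.6 to 26.1) in cKO held an *Mmp8* UMI, while before thinning 49.4% and 74.7% did. In cKO that share lies inside the interval of erythroid cells thinned to 1000 UMIs, 17.7% (11.2 to 26.0). At 2000 UMIs, which leaves out the shallower cells, 31.6% (26.2 to 37.3) of cKO ProMon-like cells and 3.57% (0.743 to 10.1) of 84 cKO erythroid cells held one.

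Other genes of the same families were mostly low in these cells. Of 19 other matrix metalloproteinase genes in the files, 12 had at least 10 UMIs over both libraries, and none reached 50 CPM in mNeu-like cells. Of 32 other ADAM genes, *Adam15* and *Adam19* reached 50 CPM there. *Adam19* stood at 13.4 CPM in Ctrl and 8.69 CPM in cKO in imNeu-like cells and at 155.1 and 138.0 CPM in mNeu-like cells, and like *Adam8* it was highest in the latter in both libraries. *Timp2*, which encodes a tissue inhibitor of metalloproteinases, stood at 40.2 and 40.6 CPM in imNeu-like and at 264.4 and 198.9 CPM in mNeu-like cells, with a library log2 ratio of -0.41 (-0.54 to -0.28) in the latter. The resistin genes *Retn* and *Retnlb* were also highest in mNeu-like cells of both libraries, at 18.6 and 22.0 CPM and at 5.98 and 3.83 CPM. *Ceacam1*, the other gene of its family to reach 50 CPM there, had 72.1 CPM in Ctrl and 61.2 CPM in cKO in mNeu-like cells, a log2 ratio of -0.23 (-0.48 to 0.01), unlike *Ceacam10* at 0.75.

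Of 17 listed genes of tertiary granules and secretory vesicles, 15 reached 50 CPM in mNeu-like cells. Of these, 1 was called higher and 1 lower in cKO, where 3.24% of all genes were higher and 21.5% lower. Their median log2 ratio was -0.24, beside -0.31 for all genes. The gene called higher was *Qsox1*, a sulfhydryl oxidase, at 80.0 CPM in Ctrl and 170.4 CPM in cKO, and the one called lower was *Clec5a*, a myeloid lectin receptor, at 137.8 and 88.2 CPM. Among the neutrophil stages, the integrin genes *Itgam* and *Itgb2* were highest in imNeu-to-mNeu-like cells, as 4 of the 6 genes were, in both libraries. *Slc11a1*, *Fpr1*, *Sirpa* and *Hp* were highest in mNeu-like cells among these stages in both libraries. *Sirpa* was higher still in macrophages, at 1278 CPM in Ctrl and 999.2 CPM in cKO, against 421.1 and 334.3 CPM in mNeu-like cells. The oxidase subunit genes *Cyba* and *Cybb* were highest earlier, in imNeu-like cells, and *Cybb* is one of the stage markers. Of the 6 secondary granule genes, *Lcn2* was called higher in mNeu-like cells of cKO and 3 (*Ltf*, *Camp* and *Chil3*) lower. Of the 4 primary granule genes 3 (*Elane*, *Mpo* and *Prtn3*) were called lower. Both counts stand beside the same 3.24% and 21.5% of all genes, and all 10 genes are stage markers. The 3 primary granule genes had 302.2, 455.3 and 247.1 CPM in Ctrl and 168.1, 154.4 and 136.5 CPM in cKO. In erythroid cells they had 249.5, 383.8 and 170.2 CPM in Ctrl and 86.7, 92.1 and 69.5 CPM in cKO. The part of free RNA in this difference was not tested. Some listed genes encode proteins that late granule enzymes or resistins act on or bind. Of these, *Cap1*, *Tlr4* and *Selplg* were highest in mNeu-like cells of both libraries among the neutrophil stages. *Selplg*, a selectin ligand, had 725.7 CPM in Ctrl and 1004 CPM in cKO there, a log2 ratio of 0.47 (0.40 to 0.54).

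The genes most like each of the 6 were sought among 5585 genes by Pearson correlation of log2(CPM + 10). The correlation was over 26 columns, one for each cell type and library with at least 10 cells. The 6 genes themselves were ranked apart, and markers of the stages and cell types were left out of the ranking. Among the genes that are not such markers, the closest to *Mmp9* was *Slfn4* (r = 0.983), to *Mmp25* *Ly6g* (0.982) and to *Retnlg* *Fpr1* (0.969). The closest to *Adam8* was *Slfn4* (0.959), to *Ceacam10* *Ly6g* (0.959) and to *Mmp8* *Il1rn* (0.936). *Mmp8* was closer to *Mmp9* (0.948) and *Retnlg* (0.937) than to *Il1rn*. The columns share libraries, depth and free RNA, so these values are descriptions. Among the 6 genes the highest correlations were *Mmp9* with *Adam8* (0.956) and *Mmp25* with *Ceacam10* (0.95), and the lowest was *Mmp25* with *Retnlg* (0.859). *Ly6g*, the surface marker of mouse neutrophils, was also higher in cKO in mNeu-like cells, at 563.6 CPM in Ctrl and 973.8 CPM in cKO, as *Ceacam10* was. In imNeu-like cells *Ly6g* differed less, at 719.0 and 799.3 CPM. *Ifnlr1*, the next closest gene to *Ceacam10* (0.947), was lower in cKO in mNeu-like cells, at 75.72 CPM in Ctrl and 58.75 CPM in cKO. *Il1rn* was lower there, at 177.3 CPM in Ctrl and 108.8 CPM in cKO, where *Mmp8* was at 2334 and 2991 CPM.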

How the data were processed

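Bone marrow of 1 Ctrl and 1 cKO library was profiled by droplet-based 3′ RNA sequencing. The values are UMI counts, 1 table per library, which the authors deposited without normalization after Cell Ranger 5.0.0 on mm10 (GRCm38). Cells needed 200 to 9000 detected genes and a mitochondrial share of no more than 30%, the limits of the study, which left 9965 in Ctrl and 6718 in cKO. Stages were assigned per cell by sums of marker genes per 10000 UMIs with at least 1000 UMIs per cell, and cells that met several stages (272 in Ctrl, 42 in cKO) or none (1232 and 876) were left out. No doublet caller was run. The limits of the sums were set on these libraries. UMIs were summed per stage and library and scaled to CPM. Intervals are exact Poisson for levels, exact Clopper-Pearson for shares and exact binomial for ratios, at 95%, and cover counting error only. No p-value was computed, since cells of 1 library are not replicates.

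The named genes are the 6 genes, *Map4k4*, stage markers, family and granule lists, and the genes with the closest pattern that are not markers. One listed gene is not reported here. The genes and lists were chosen with earlier results of these data known, and the markers derive in part from tables that the study made from these libraries. Shares were compared after thinning each cell to 1000 UMIs. A 3′ assay is not scaled to gene length, so levels were compared within a gene. Alternatives were other floors of genes and UMIs, a 10% mitochondrial ceiling, marker lists of the study, a stricter gate, CPM without mitochondrial, ribosomal, haemoglobin and immunoglobulin genes, scaling by the median ratio of genes, averages of single-cell proportions, and removal of free RNA or of the deepest cells. The calculations were tested on simulated data. Python 3.11.15, numpy 2.4.6, scipy 1.17.1 and pandas 2.3.3 were used.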

Additional observations from a re-analysis of the deposited data

Results flagged for a closer look

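*Mmp8* was noted because the libraries differed in opposite directions in different stages of one path. The library log2 ratio in the mature stage was 0.36 (0.32 to 0.40), against -0.57 (-0.63 to -0.51) in the immature stage and -0.09 (-0.12 to -0.05) in the stage between them, the last of which turned to 0.17 under median-of-ratios scaling. The difference between the stages was not tested, because there is 1 library per genotype. At equal depth, with cells thinned before they were placed, the latest bin of the axis was at 0.79 and the earliest at -0.28, against 0.86 and -1.82 in whole cells. Thinning also changed which cells fell in these bins. None of the other 5 genes had counting intervals on opposite sides of 0 in 2 of these 3 stages.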

How the results depend on the processing

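The number of genes highest in mNeu-like cells in both libraries, by share of UMIs, was 2. It was the same under all 15 alternatives, with *Retnlg* and *Adam8* each time. The number higher in cKO in mNeu-like cells was 3 (*Mmp8*, *Retnlg* and *Ceacam10*) and became 4 with *Mmp25* added under median-of-ratios scaling, under means of per-cell proportions and when every cell was thinned to 1000 UMIs before gating. From imNeu-like to imNeu-to-mNeu-like cells all 6 genes were at least 1.5 times as high under all 15 alternatives in both libraries. From PreNeu-like to imNeu-like cells all with a value were, and subtraction of free RNA left 3 to 6 of them with a value. From imNeu-to-mNeu-like to mNeu-like cells, marker lists of the study left none higher and 3 lower in each library. A floor of 1000 UMIs per cell is the floor of the gates and changed no value. Of the 4 ratios past 1.5-fold in the late stages, none changed sign. With marker lists of the study 2 stayed past it, and 3 did without the deepest 5% of cells, with means of per-cell proportions, and with CPM that left out mitochondrial, ribosomal, haemoglobin and immunoglobulin genes. Of all 18 ratios, 12 kept their sign under median-of-ratios scaling and 15 with marker lists of the study or a stricter gate. Size factors here came from all stages jointly, which put *Mmp9* in mNeu-like cells at -0.00 in place of the 0.05 from factors of the 2 mNeu-like sums alone. In mNeu-like cells over the alternatives, the log2 ratio of *Ceacam10* ranged from 0.49 to 0.95, of *Retnlg* from 0.12 to 0.45, of *Mmp8* from 0.03 to 0.56, of *Adam8* from -0.39 to -0.17, of *Mmp9* from -0.25 to -0.00 and of *Mmp25* from -0.46 to 0.22. Marker lists of the study left 318 mNeu-like cells in cKO in place of 987 and gave the lowest value of all 6 genes, and the cause was not tested. Gate floors of 500 and 2000 UMIs, the subtraction of erythroid or per-cell free RNA, and thinning before gating were chosen after seeing the data. In the thinned shares, the order of the libraries was the same at 500, 1000 and 2000 UMIs for *Mmp8* in imNeu-like and mNeu-like cells and for *Ceacam10* in all 3 late stages. No paired analysis was possible because each genotype has 1 library. Leaving out a library would leave no comparison. Depth limits *Ceacam10*, *Mmp25* and *Adam8* most, since few cells hold a UMI of them at equal depth.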
